A study of Mus musculus with 12 samples.

Results

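The early neutrophil azurophil granule genes Mpo, Elane, Ctsg, Prtn3, Prss57, Ms4a3, Fcnb and Serpinb1a were described in leukemic long-term hematopoietic stem cells (LTHSC) from 3 groups of mice. They are 8 of the 48795 gene identifiers in the deposited count table, found by matching Ensembl identifiers to mouse symbols, and all 8 were among the 14756 genes with enough counts to be tested. The genes were chosen on their measured values in these groups, so their differences between groups are given as a description, without a test.

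Chronic myeloid leukemia (CML) is the disease given for all libraries, and the strain is C57BL/6. LTHSC were gated by surface markers in marrow samples, and 4 libraries each were sequenced for a Prx1_Cre, a Tek_Cre and a No_Cre group. The Prx1-Cre driver recombines in mesenchymal stroma, the Tek-Cre driver in endothelium and in blood cells, and No_Cre mice carry neither. The series title concerns Cxcl12 made by the mesenchymal niche, but the sample labels name neither the allele that Cre recombines nor the leukemia model, and they call the mice recipients in one field and primary mice in another. Cxcl12 itself averaged 0.268 ± 0.183 CPM in Prx1_Cre, 0.389 ± 0.211 CPM in Tek_Cre and 0.366 ± 0.206 CPM in No_Cre LTHSC (SD, n = 4), and since the niche cells were not sequenced this does not check the Cre labels. The number of mice behind a library is not given, so p-values measure the spread between libraries, which may be partly technical.

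Library totals were 22385590 to 28253956 counts in Prx1_Cre, 15715603 to 28860324 in Tek_Cre and 19988050 to 24007569 in No_Cre. Expression is given in CPM, counts relative to the library total, after scaling between libraries with edgeR's TMM factors. The fewest counts behind any value of the 8 genes in a library were 664 (Prss57, Tek_Cre) and the most were 336253 (Mpo, Prx1_Cre). The fourth Prx1_Cre library stood apart from the other Prx1_Cre libraries for several of these genes, so some results are also given without it. These include the median of the 8 genes, the changes of Mpo and Elane, and the calls of later neutrophil genes. The summed levels, the ratios between genes and the correlations are given only with it. The stem cell label was checked against 12 markers (such as Procr, Hlf and Mecom), none of which fell under 1 CPM in any group, and their summed level was 1214 to 1267 CPM in Prx1_Cre, 2547 to 2575 CPM in Tek_Cre and 2073 to 2112 CPM in No_Cre libraries. Transcripts of other lineages were present beside them. Immunoglobulin genes took 0.296 to 0.310% of counts in Prx1_Cre, 25.2 to 26.0% in Tek_Cre and 7.31 to 7.71% in No_Cre libraries, and 24 genes of later neutrophil granules and surface proteins summed to 42465 to 43023 CPM in Prx1_Cre, 41495 to 42174 CPM in Tek_Cre and 25995 to 26616 CPM in No_Cre libraries.

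Azurophil granules are the first granules that a neutrophil precursor makes, at the promyelocyte stage, and hold myeloperoxidase and a family of serine proteases that kill ingested microbes. Their genes are switched on in granulocyte-monocyte progenitors under PU.1 (Spi1), C/EBP, MYB and RUNX factors, and are switched off again when the specific and gelatinase granules of later stages are made. Stem cells at the top of this hierarchy carry low levels of some of these transcripts.

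RefSeq promoter windows (build GRCm38.p6, 250 bases before to 50 bases after the RefSeq transcription start) were available for 6 of the 8 genes and are shown because these genes share a lineage-restricted pattern. RefSeq and GENCODE place the start at different bases for Mpo, Elane, Prtn3 and Fcnb. For Prtn3 the GENCODE start (79874476) lies outside the window shown. The windows lie at chr11:87793534-87793833 on the plus strand for Mpo, chr10:79886062-79886361 on the plus strand for Elane, chr14:56102525-56102824 on the minus strand for Ctsg, chr10:79879417-79879716 on the plus strand for Prtn3, chr19:11640802-11641101 on the minus strand for Ms4a3 and chr2:28084829-28085128 on the minus strand for Fcnb. Each is printed from 5′ to 3′ on its own gene's strand, with the letters GAGGAA, the core read by PU.1 and other ETS factors, in capitals.
Mpo: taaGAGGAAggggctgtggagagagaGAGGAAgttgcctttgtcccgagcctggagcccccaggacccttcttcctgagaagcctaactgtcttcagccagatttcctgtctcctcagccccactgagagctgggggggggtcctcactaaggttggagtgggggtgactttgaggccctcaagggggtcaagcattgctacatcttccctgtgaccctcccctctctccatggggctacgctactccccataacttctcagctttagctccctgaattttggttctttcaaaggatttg
Elane: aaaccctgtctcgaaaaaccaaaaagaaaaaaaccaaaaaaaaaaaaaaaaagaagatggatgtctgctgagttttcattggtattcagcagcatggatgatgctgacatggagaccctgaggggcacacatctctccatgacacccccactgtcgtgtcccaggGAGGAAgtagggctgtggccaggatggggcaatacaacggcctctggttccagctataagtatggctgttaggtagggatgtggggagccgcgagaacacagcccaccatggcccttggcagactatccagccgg
Ctsg: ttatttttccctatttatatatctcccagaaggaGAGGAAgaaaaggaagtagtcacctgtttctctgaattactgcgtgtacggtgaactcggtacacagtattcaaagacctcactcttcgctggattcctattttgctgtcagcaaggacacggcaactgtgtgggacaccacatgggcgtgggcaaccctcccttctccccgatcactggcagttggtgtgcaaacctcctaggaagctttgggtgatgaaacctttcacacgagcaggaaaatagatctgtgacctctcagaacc
Prtn3: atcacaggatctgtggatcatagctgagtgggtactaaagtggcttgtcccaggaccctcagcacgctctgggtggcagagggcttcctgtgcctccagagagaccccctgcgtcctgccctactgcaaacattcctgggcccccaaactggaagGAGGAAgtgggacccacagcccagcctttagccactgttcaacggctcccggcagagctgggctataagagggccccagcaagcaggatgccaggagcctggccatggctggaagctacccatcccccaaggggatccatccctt
Ms4a3: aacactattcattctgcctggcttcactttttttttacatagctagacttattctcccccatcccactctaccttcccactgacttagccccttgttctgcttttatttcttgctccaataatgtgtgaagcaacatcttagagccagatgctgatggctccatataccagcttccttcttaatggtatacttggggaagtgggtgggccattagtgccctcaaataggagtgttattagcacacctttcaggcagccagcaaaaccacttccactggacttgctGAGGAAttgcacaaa
Fcnb: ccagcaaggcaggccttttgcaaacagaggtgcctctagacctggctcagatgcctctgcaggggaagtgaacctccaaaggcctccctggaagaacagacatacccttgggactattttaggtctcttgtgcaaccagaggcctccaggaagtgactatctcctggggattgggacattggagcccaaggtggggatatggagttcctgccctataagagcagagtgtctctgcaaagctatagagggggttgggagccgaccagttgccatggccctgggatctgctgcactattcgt
With both strands read, GAGGAA was found in 5 of the 6 windows, against 28.3% of 32851 mouse promoter windows of the same length. Counted from the RefSeq start, it began at -247 and -224 in Mpo, -85 in Elane, -216 in Ctsg, -95 in Prtn3 and 36 in Ms4a3, and the Fcnb window held none. Elane and Prtn3, neighbours on chromosome 10, had the same arrangement, with the MYB-type letters CAACNG (as CAACGG) at -51 and -56 and TATAA on the printed strand at -31 and -32. Across the 6 windows CAACNG was found in 4 (35% of all windows), the C/EBP-type letters TTGCNNAA in 2, Ms4a3 and Fcnb (10.8% of all windows), the RUNX letters TGTGGT in 1, Ctsg (16.8% of all windows), and TATAA in 3 (17.5% of all windows). CAACNG, TTGCNNAA and TGTGGT were read on both strands, and no matches of different motifs overlapped in these windows. The motifs were chosen after the values of these genes were seen, so the shares are a description. The matches describe the letters and not binding.

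Mpo encodes myeloperoxidase, the granule enzyme that makes hypochlorous acid from hydrogen peroxide and chloride (ENSMUSG00000009350.13, chromosome 11, 87793581 to 87804413, plus strand, GRCm38). It had 10981, 10978, 11074 and 12644 CPM in the 4 Prx1_Cre libraries, 1072.5, 1075, 1131 and 1200.0 CPM in the Tek_Cre libraries, and 4496, 4359, 4322 and 4472 CPM in the No_Cre libraries. Every Prx1_Cre library was above every No_Cre library, and every Tek_Cre library was below them. Its mean in Prx1_Cre LTHSC was 2.59-fold that in No_Cre LTHSC, with a log2 fold change of 1.37 ± 0.05 (SE). Its mean in Tek_Cre LTHSC was 3.94-fold lower than in No_Cre LTHSC, with a log2 fold change of -1.98 ± 0.05. Ranked by CPM over all genes, Mpo stood at place 2 in Prx1_Cre, 70 in Tek_Cre and 8 in No_Cre LTHSC. In bulk RNA, fewer cells of a type and less RNA per cell cannot be told apart, here and in the results that follow.

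Elane encodes neutrophil elastase, a granule serine protease (ENSMUSG00000020125.6, chromosome 10, 79886247 to 79888215, plus strand). It had 2978, 3009, 3021 and 3395 CPM in Prx1_Cre, 599.5, 592, 629 and 675 CPM in Tek_Cre, and 1805, 1776, 1739 and 1804 CPM in No_Cre libraries. The 3 groups did not overlap, and Elane stood at place 6 in Prx1_Cre, 168 in Tek_Cre and 26 in No_Cre LTHSC among all genes ranked by CPM. The log2 fold change was 0.80 ± 0.05 (SE) for Prx1_Cre over No_Cre and -1.51 ± 0.05 for Tek_Cre over No_Cre. Prtn3 encodes proteinase 3, a close relative of elastase that lies just before it on chromosome 10 (ENSMUSG00000057729.12, 79874476 to 79883174, plus strand). It had 913, 909.5, 937 and 1037 CPM in Prx1_Cre, 287, 291, 314 and 327 CPM in Tek_Cre, and 569, 527, 546 and 586 CPM in No_Cre libraries. Its groups were also apart, and its log2 fold changes of 0.77 ± 0.05 (Prx1_Cre over No_Cre) and -0.87 ± 0.05 (Tek_Cre over No_Cre) were about equal in size.

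Ctsg encodes cathepsin G, a chymotrypsin-like granule protease (ENSMUSG00000040314.1, chromosome 14, 56099881 to 56102574, minus strand). It had 781, 796, 772.5 and 854 CPM in Prx1_Cre, 62.2, 58.9, 62.8 and 61.8 CPM in Tek_Cre, and 315, 319, 312 and 309.8 CPM in No_Cre libraries. Of the 8 genes it had the widest range between groups, 13.03-fold between its Prx1_Cre and Tek_Cre means. The log2 fold change was 1.35 ± 0.04 (SE) for Prx1_Cre over No_Cre and -2.35 ± 0.04 for Tek_Cre over No_Cre, a mean 5.11-fold lower in Tek_Cre LTHSC. Prss57 encodes neutrophil serine protease 4 (NSP4), the scarcest of the granule's serine proteases (ENSMUSG00000020323.14, chromosome 10, 79781474 to 79790961, minus strand). It had 105.9, 107.6, 114 and 123 CPM in Prx1_Cre, 51.6, 49.1, 48.9 and 50.3 CPM in Tek_Cre, and 85.8, 81.5, 81.9 and 84.2 CPM in No_Cre libraries. Its order of groups was that of the other proteases without overlap, but the differences were smaller, with log2 fold changes of 0.43 ± 0.05 for Prx1_Cre over No_Cre and -0.74 ± 0.05 for Tek_Cre over No_Cre.

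Ms4a3 encodes a four-span membrane protein used as a marker of granulocyte-monocyte progenitors (ENSMUSG00000024681.11, chromosome 19, 11629496 to 11640851, minus strand). It had 381, 390.1, 377 and 349.6 CPM in Prx1_Cre, 103.7, 99.4, 96.2 and 86.4 CPM in Tek_Cre, and 215, 214, 219 and 199.7 CPM in No_Cre libraries. The groups did not overlap, and within each group the fourth library was the lowest. The log2 fold change was 0.82 ± 0.05 (SE) for Prx1_Cre over No_Cre and -1.14 ± 0.05 for Tek_Cre over No_Cre. Fcnb encodes ficolin-B, a lectin that recognizes microbial sugars and starts the lectin pathway of complement (ENSMUSG00000026835.15, chromosome 2, 28076378 to 28084885, minus strand). It had 479, 475, 468 and 524 CPM in Prx1_Cre, 248, 252, 263 and 272 CPM in Tek_Cre, and 348, 351, 347 and 350.3 CPM in No_Cre libraries. Fcnb kept the same order with the smallest range of the 7 genes that share it, 1.88-fold between Prx1_Cre and Tek_Cre means, and log2 fold changes of 0.48 ± 0.04 for Prx1_Cre over No_Cre and -0.43 ± 0.04 for Tek_Cre over No_Cre.

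Serpinb1a encodes a cytoplasmic inhibitor of elastase, cathepsin G and proteinase 3 (ENSMUSG00000044734.15, chromosome 13, 32842092 to 32851185, minus strand). It had 848, 843, 818 and 781 CPM in Prx1_Cre, 705, 703, 688 and 647 CPM in Tek_Cre, and 566, 582, 582 and 560.5 CPM in No_Cre libraries. Here the Tek_Cre libraries lay above the No_Cre libraries, not below them, so that the inhibitor did not share the order of the proteases it inhibits. The log2 fold change was 0.52 ± 0.04 (SE) for Prx1_Cre over No_Cre and 0.26 ± 0.04 for Tek_Cre over No_Cre. The Tek_Cre over No_Cre value depends on the scaling, since it was -0.087 when libraries were scaled by their totals alone, a setting that moved the median of all genes to -0.35.

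**Figure D1:**
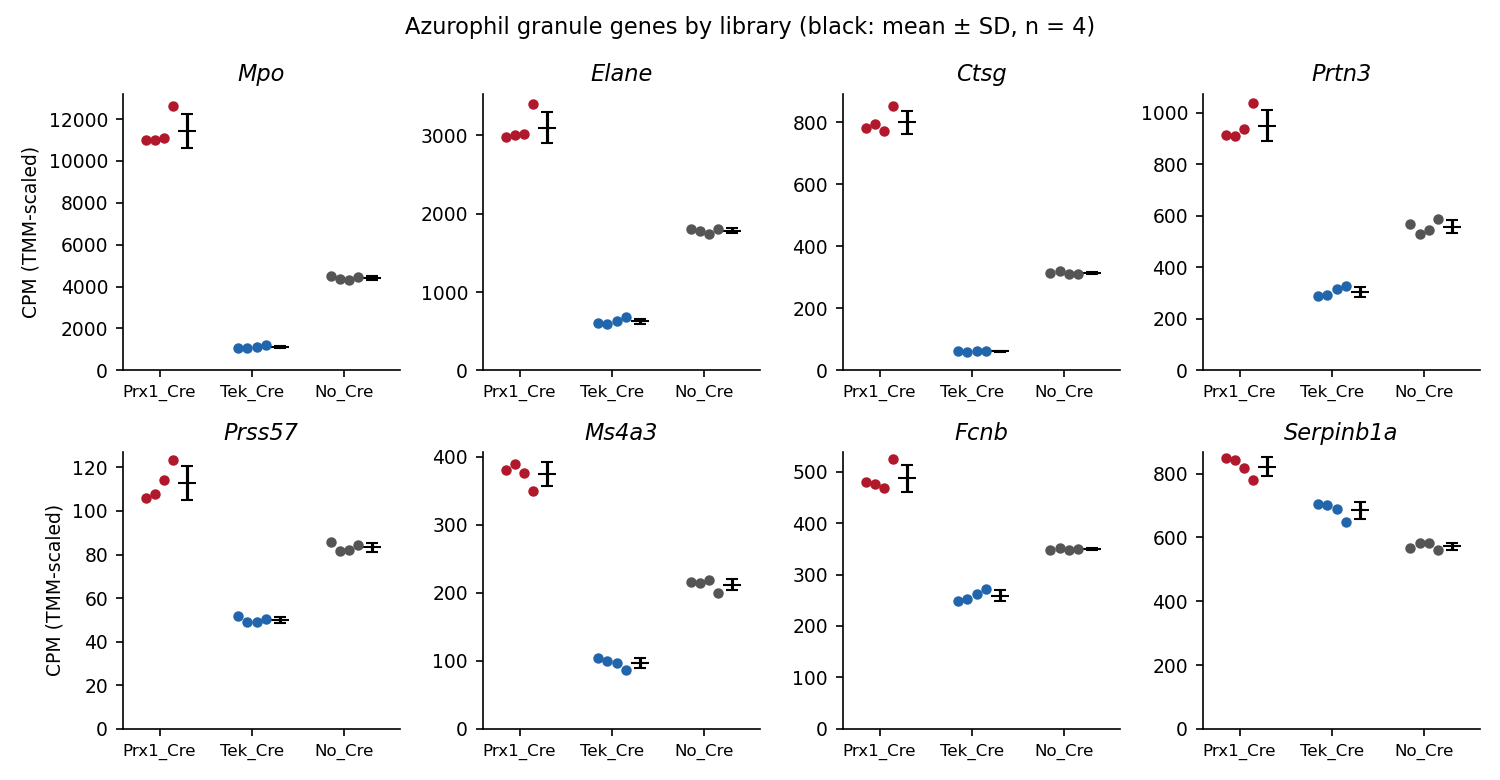
Expression of the 8 azurophil granule genes, 1 panel per gene. The vertical axis is TMM-scaled CPM on a linear scale from 0, points are single libraries of the Prx1_Cre (red), Tek_Cre (blue) and No_Cre (grey) groups, and black bars are the mean ± SD of 4 libraries. In 7 panels the Tek_Cre libraries are lowest, and in the Serpinb1a panel the No_Cre libraries are lowest.

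In Prx1_Cre against No_Cre LTHSC, all 8 genes were higher without overlap of the groups, with log2 fold changes of 0.43 to 1.37 and a median of 0.78. Over all genes tested, 33.2% were higher without overlap and 35.4% were lower without overlap, and the median was -0.02. Without the fourth Prx1_Cre library the median of the 8 genes was 0.74, with Mpo at 1.32 and Elane at 0.75. In Tek_Cre against No_Cre LTHSC, 7 genes were lower without overlap and 1, Serpinb1a, was higher, with log2 fold changes of -2.35 to 0.26 and a median of -1.004. Over all genes tested, 24.5% were lower without overlap, 24.3% were higher without overlap and the median was 0.00. In Prx1_Cre against Tek_Cre LTHSC all 8 were higher without overlap, with a median log2 fold change of 1.80, and over all genes tested 33.5% were higher and 35.9% lower without overlap. These 3 comparisons share libraries, and nothing is read from the counts because the genes were chosen on these levels. The order Prx1_Cre above No_Cre above Tek_Cre without overlap held for 7 of the 8 genes and for 1319 of the 14756 genes tested (8.94%). Serpinb1a had the order Prx1_Cre above Tek_Cre above No_Cre, which held for 562 genes (3.81%).

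**Figure D2:**
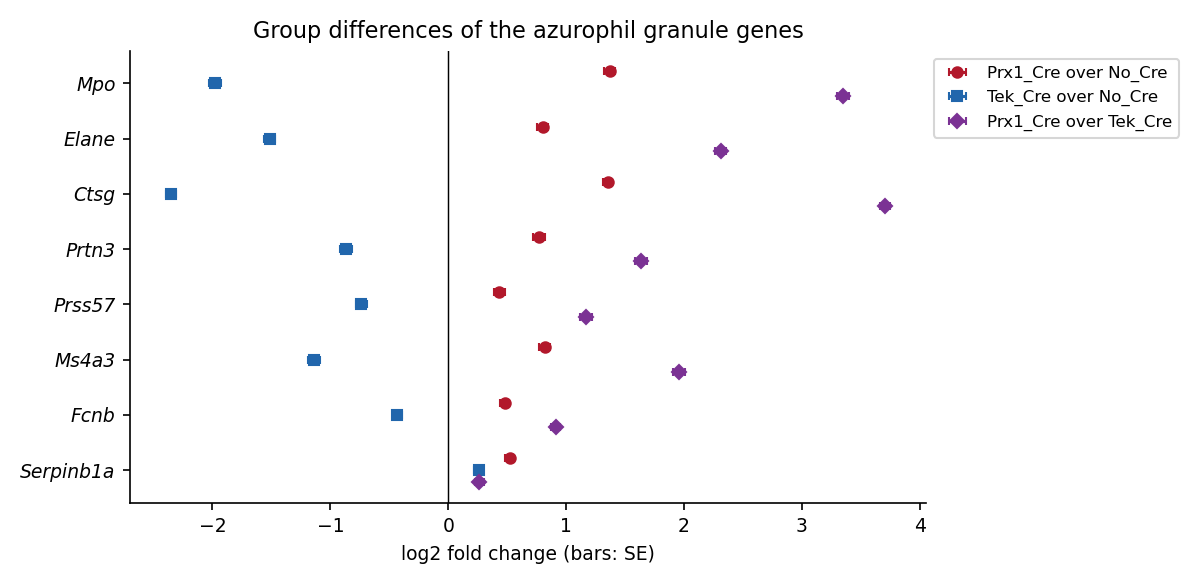
Log2 fold change of each azurophil granule gene in the 3 comparisons of groups. Points are estimates from edgeR's fit over all genes and bars are their SE, mostly narrower than the points. Prx1_Cre over No_Cre (red circles) lies right of 0 for all 8 genes, Tek_Cre over No_Cre (blue squares) lies left of 0 for all but Serpinb1a, and Prx1_Cre over Tek_Cre (purple diamonds) runs from 0.26 for Serpinb1a to 3.70 for Ctsg.

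The 8 genes summed to 18066 ± 1095 CPM in Prx1_Cre, 3201 ± 94.8 CPM in Tek_Cre and 8282 ± 121 CPM in No_Cre LTHSC (SD, n = 4). As a share of all counts this was 1.94% in Prx1_Cre, 0.273% in Tek_Cre and 0.90% in No_Cre LTHSC. Mpo made up 63.2 ± 0.664% of the sum in Prx1_Cre, 35.0 ± 0.845% in Tek_Cre and 53.3 ± 0.245% in No_Cre LTHSC. Without Mpo, the other 7 genes summed to 6647 ± 278 CPM in Prx1_Cre, 2081 ± 35.8 CPM in Tek_Cre and 3869 ± 36.6 CPM in No_Cre LTHSC, so the order of the groups did not rest on Mpo. The 4 serine proteases summed to 4963 ± 298 CPM in Prx1_Cre, 1040.3 ± 56.7 CPM in Tek_Cre and 2735 ± 52.3 CPM in No_Cre LTHSC.

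Per kilobase of exon, the level of Mpo was 3335 ± 239 CPM in Prx1_Cre, 327 ± 17.6 CPM in Tek_Cre and 1289 ± 24.7 CPM in No_Cre LTHSC (SD, n = 4). Elane per kilobase was 3151 ± 200.3 CPM in Prx1_Cre, 634 ± 38.3 CPM in Tek_Cre and 1810.0 ± 31.5 CPM in No_Cre LTHSC. On this scale Elane was the highest of the 8 genes in Tek_Cre and No_Cre LTHSC, and in Prx1_Cre LTHSC Mpo was above Elane in every library, by 1.05 to 1.07 times. Ctsg per kilobase was 775 ± 35.5 CPM in Prx1_Cre, 59.5 ± 1.70 CPM in Tek_Cre and 304 ± 3.86 CPM in No_Cre LTHSC. It followed Mpo and Elane in Prx1_Cre LTHSC, but in Tek_Cre LTHSC it was below Serpinb1a, Fcnb and Prtn3. Serpinb1a per kilobase was 357 ± 13.4 CPM in Prx1_Cre, 298 ± 11.5 CPM in Tek_Cre and 249 ± 4.81 CPM in No_Cre LTHSC. Prtn3 per kilobase was 548 ± 34.4 CPM in Prx1_Cre, 176 ± 10.9 CPM in Tek_Cre and 322 ± 15 CPM in No_Cre LTHSC, and Fcnb per kilobase was 364 ± 19.0 CPM in Prx1_Cre, 193 ± 8.20 CPM in Tek_Cre and 261 ± 1.28 CPM in No_Cre LTHSC. Neither Fcnb nor Serpinb1a was above the other in all 4 Prx1_Cre libraries. Ms4a3 came next to last in every group, with 199 ± 9.28 CPM per kilobase in Prx1_Cre, 51.2 ± 3.903 in Tek_Cre and 113 ± 4.54 in No_Cre LTHSC. Prss57 was last in every group, with 39.7 ± 2.78 CPM per kilobase in Prx1_Cre, 17.6 ± 0.453 in Tek_Cre and 29.3 ± 0.724 in No_Cre LTHSC.

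Ratios within a library do not depend on the scaling between libraries, and they show that the genes did not change by one common factor. The ratio of Mpo to Elane CPM was 3.68 ± 0.0326 in Prx1_Cre, 1.79 ± 0.0161 in Tek_Cre and 2.48 ± 0.0160 in No_Cre LTHSC (SD, n = 4). The ratio of Elane to Prtn3 CPM was 3.27 ± 0.0354 in Prx1_Cre and 2.05 ± 0.0370 in Tek_Cre, against 3.20 ± 0.122 in No_Cre LTHSC. The neighbours Elane and Prtn3 thus stood in a similar proportion in Prx1_Cre and No_Cre LTHSC, with library ranges of 3.22 to 3.31 and 3.08 to 3.37, and in a lower one in Tek_Cre LTHSC. Mpo to Ctsg was 14.3 ± 0.435 in Prx1_Cre, 18.2 ± 0.903 in Tek_Cre and 14.1 ± 0.357 in No_Cre LTHSC, again with overlapping libraries in Prx1_Cre and No_Cre. The ratio of Mpo to the inhibitor Serpinb1a was 13.9 ± 1.54 in Prx1_Cre and 1.64 ± 0.155 in Tek_Cre, against 7.71 ± 0.292 in No_Cre LTHSC. The ratio of Ctsg to Serpinb1a was 0.976 ± 0.0794 in Prx1_Cre and 0.0898 ± 0.00493 in Tek_Cre, against 0.548 ± 0.00888 in No_Cre LTHSC.

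With the deviations from group means pooled over the 3 groups, the 8 genes fell into a pair of sets that were negatively correlated. The split did not hold for every gene within each group. In No_Cre the fourth library was lowest for Ctsg as for Ms4a3 (log2 deviations -0.019 and -0.086). In Tek_Cre the first library was highest for Prss57 as for Ms4a3 (0.047 and 0.108). In the fourth Prx1_Cre library Mpo, Elane, Ctsg, Prtn3, Prss57 and Fcnb were each above the other 3 libraries and Ms4a3 and Serpinb1a were below them, and in the fourth Tek_Cre library Ms4a3 and Serpinb1a were again the lowest while Mpo, Elane, Prtn3 and Fcnb were the highest. Over the 12 deviations from group means, on the log2 CPM scale, Pearson's r ran from 0.480 to 0.987 between pairs of the first 6 genes and was 0.916 between Ms4a3 and Serpinb1a. Between the sets it ran from -0.940 to -0.343. These correlations describe 12 libraries with a group mean removed, and the genes share library and depth. They include the fourth Prx1_Cre library and were not recomputed without it. Its deviations were 0.093 (Ctsg) to 0.150 (Mpo) for the 6 genes, -0.098 for Ms4a3 and -0.075 for Serpinb1a. The sets differ in base composition, since the GC content of the annotated transcripts was 51.5% (Ctsg) to 60.7% (Prtn3) for the 6 genes and 40.0% for Ms4a3 and 43.6% for Serpinb1a.

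Over 10332 genes, the deviation of the fourth Prx1_Cre library from its group mean had a correlation with transcript GC content of 0.716 across genes, which are not independent replicates. In that library the median deviation was 0.12 on the log2 scale for 2225 genes of at least 55% GC and -0.16 for 2583 genes under 45% GC. The other Prx1_Cre libraries had correlations of -0.504 to -0.380. The fourth Tek_Cre library had 0.573 and the fourth No_Cre library 0.32, each the highest of its group. Correlations of log2 fold change and GC content were -0.114 for Prx1_Cre over No_Cre, -0.0134 for Tek_Cre over No_Cre and -0.0747 for Prx1_Cre over Tek_Cre. A correlation also depends on how widely the values vary between genes, so these and the library correlations cannot be compared in size. The part of GC content in the spread of the 8 genes was not tested beyond these values.

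**Figure D3:**
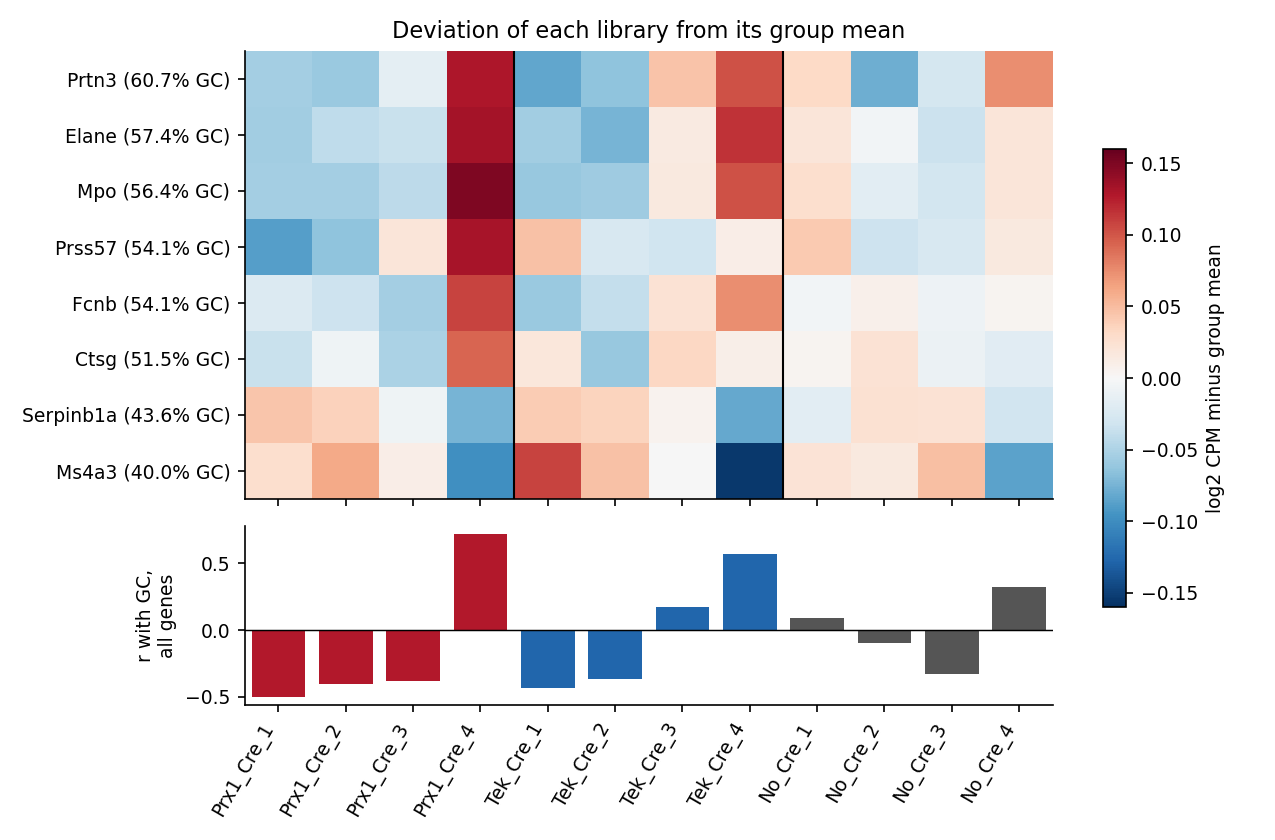
Deviation of each library from its group mean for the 8 azurophil granule genes, with genes ordered by transcript GC content. Colours give log2 CPM minus group mean (red above, blue below), columns are the 12 libraries, and the bars below give Pearson's r of that deviation with GC content over 10332 genes. The fourth Prx1_Cre library is red for the 6 genes above 50% GC and blue for Serpinb1a and Ms4a3, and its bar is the highest at 0.716.

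Other genes of granulocyte-monocyte progenitors and promyelocytes were then examined as a list. It was chosen by function, but with earlier results of these data known, as were the lists that follow. A gene was counted as called when edgeR's quasi-likelihood test gave an adjusted p under 0.05. Of 29 listed genes 27 were tested. In Prx1_Cre against No_Cre LTHSC 21 rose and 4 fell, with a median log2 fold change of 0.67, beside 36.7% called higher and 39.0% called lower and a median of -0.02 over all genes tested. Anxa3, annexin A3, rose by a log2 fold change of 1.44 ± 0.05 (144 ± 2.61 CPM in Prx1_Cre and 53.2 ± 1.30 CPM in No_Cre LTHSC). Alas1, the first enzyme of heme synthesis, which supplies the heme of myeloperoxidase among other proteins, rose by 1.26 ± 0.04, and Csf3r, the receptor for G-CSF, rose by 0.48 ± 0.05. Ctsw, encoding the protease cathepsin W of cytotoxic lymphocytes, fell by 1.59 on the log2 scale, and Nkg7, a cytotoxic granule protein, fell by 0.53.

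In Tek_Cre against No_Cre LTHSC the same list was divided, with 10 genes called higher and 15 called lower and a median of -0.22, beside 26.4% called higher and 26.5% called lower and a median of 0.00 over all genes tested. By library totals alone 4 were called higher and 19 lower. Dmkn, encoding dermokine, fell by 1.90 on the log2 scale, Nkg7 by 1.01, Plac8 by 0.86, Alas1 by 0.78 and Csf3r by 0.30. Igsf6, an immunoglobulin-domain receptor of myeloid cells, rose in both comparisons with No_Cre, by 1.51 ± 0.04 in Prx1_Cre and 0.39 ± 0.04 in Tek_Cre LTHSC. In Prx1_Cre against Tek_Cre LTHSC 20 rose and 7 fell (median 0.78), beside 37.8% called higher and 39.8% called lower of all genes tested. Alas1 rose by 2.04 ± 0.05 and Anxa3 by 1.87 ± 0.05 in that comparison.

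Most genes of later neutrophil stages were not in the order of the azurophil granule genes. All 24 genes of specific and gelatinase granules, calprotectin and later surface proteins were tested. In Tek_Cre against No_Cre LTHSC, where 7 of the 8 azurophil genes were lower, 22 of them were called higher and 2 (Olfm4 and Cxcl2) lower, with a median log2 fold change of 0.61, beside 26.4% higher and 26.5% lower over all genes tested. In Prx1_Cre against No_Cre LTHSC 18 were called higher and 3 lower, with a median of 0.67, beside 36.7% higher and 39.0% lower over all genes tested. In Prx1_Cre against Tek_Cre LTHSC 11 were called higher and 10 lower, with a median of -0.03, beside 37.8% higher and 39.8% lower over all genes tested. Without the fourth Prx1_Cre library, 20 were called higher and 3 lower against No_Cre. Scaled by library totals alone, the Tek_Cre against No_Cre counts were 19 higher and 4 lower with a median of 0.27, and the Prx1_Cre over Tek_Cre counts were 14 higher and 5 lower with a median of 0.31.

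Ltf, encoding lactoferrin of the specific granules, averaged 10255 ± 595 CPM in Prx1_Cre, 7478 ± 247 CPM in Tek_Cre and 4727 ± 76.0 CPM in No_Cre LTHSC, and rose against No_Cre in both. Ngp, neutrophilic granule protein, averaged 13126 ± 404 CPM in Prx1_Cre, 11189.5 ± 345 CPM in Tek_Cre and 7391 ± 151 CPM in No_Cre LTHSC. Its log2 fold change was 0.83 ± 0.04 for Prx1_Cre over No_Cre (adjusted p = 9.33e-16) and 0.60 ± 0.04 for Tek_Cre over No_Cre (adjusted p = 1.63e-12). Lcn2, the siderophore-binding lipocalin 2, rose by 0.84 ± 0.03 in Prx1_Cre and 0.63 ± 0.03 in Tek_Cre LTHSC. The gelatinase granule gene Mmp9 rose by 0.49 ± 0.04 in Prx1_Cre and 1.08 ± 0.04 in Tek_Cre LTHSC, and the collagenase gene Mmp8 by 0.74 ± 0.05 in Prx1_Cre and 1.12 ± 0.05 in Tek_Cre LTHSC. Camp, encoding the antimicrobial cathelicidin, fell by 0.36 in Prx1_Cre LTHSC and rose by 0.43 ± 0.04 in Tek_Cre LTHSC. S100a8, a calprotectin subunit, was not called between Prx1_Cre (1939 ± 320.5 CPM) and No_Cre LTHSC (1942 ± 73.0 CPM) and rose by 0.85 ± 0.09 in Tek_Cre LTHSC, while its partner S100a9 rose by 0.46 ± 0.03 in Prx1_Cre and 0.78 ± 0.03 in Tek_Cre LTHSC.

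Within each library, the summed CPM of the 8 azurophil genes was set against that of the 24 later genes, a ratio that does not depend on scaling between libraries. The azurophil sum was 42.2 ± 2.80% of the later sum in Prx1_Cre, 7.66 ± 0.280% in Tek_Cre and 31.5 ± 0.773% in No_Cre LTHSC (SD, n = 4). Library values ran from 40.7 to 46.4% in Prx1_Cre, 7.40 to 8.001% in Tek_Cre and 30.8 to 32.3% in No_Cre LTHSC, without overlap. The ratio was chosen after the levels were seen and is given as a description. The later sum was 42808 ± 254 CPM in Prx1_Cre, 41778 ± 313 CPM in Tek_Cre and 26277 ± 283 CPM in No_Cre LTHSC. Prx1_Cre and Tek_Cre LTHSC, which differ most in azurophil genes, were thus close in this TMM-scaled sum. Unlike the ratio, the sum depends on the scaling between libraries. By library totals alone the later genes had a median log2 fold change of 0.31 in Prx1_Cre over Tek_Cre, and all genes tested had 0.32.

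**Figure D4:**
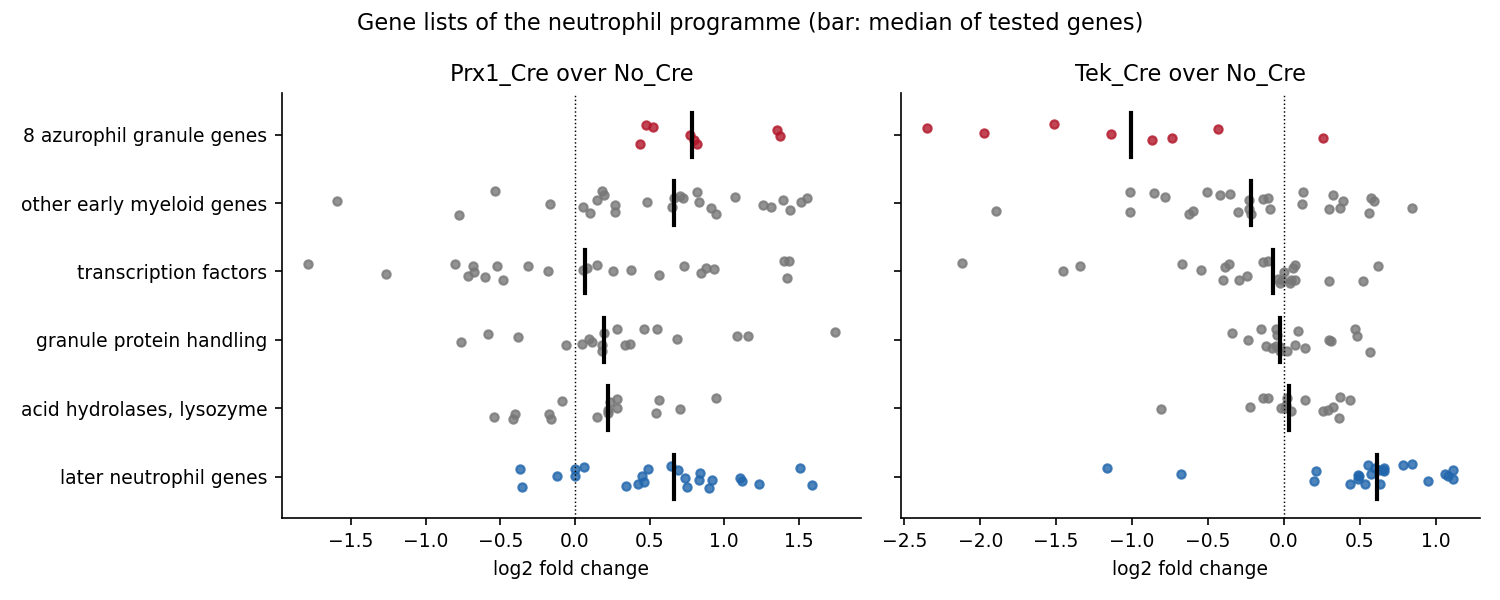
Log2 fold change over No_Cre of the 8 azurophil granule genes and of 5 lists of related genes, in Prx1_Cre (left) and Tek_Cre (right) LTHSC. Each point is a gene, a bar is the median of the tested genes of a list, and the dotted line marks no change. The azurophil median is 0.78 on the left and -1.004 on the right, and the median of the later neutrophil genes is 0.67 and 0.61.

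Transcription factors of granulocyte and monocyte formation were called in both directions. Of 24 tested, 11 were called higher and 11 lower in Prx1_Cre against No_Cre LTHSC (median 0.07, or -0.03 with upper-quartile scaling), beside 36.7% higher and 39.0% lower over all genes tested, and 3 higher and 11 lower in Tek_Cre against No_Cre LTHSC (median -0.07, and 2 higher and 21 lower by library totals alone). In Prx1_Cre against Tek_Cre LTHSC 12 were called higher and 8 lower (median 0.17). The shares over all genes tested were 26.4% higher and 26.5% lower in Tek_Cre against No_Cre, and 37.8% and 39.8% in Prx1_Cre against Tek_Cre LTHSC. Cebpa, the C/EBP factor needed to form granulocyte-monocyte progenitors, had the order of the azurophil genes, with 9.14 ± 0.584 CPM in Prx1_Cre, 0.780 ± 0.238 CPM in Tek_Cre and 3.39 ± 0.627 CPM in No_Cre LTHSC. Its log2 fold change was 1.44 ± 0.13 for Prx1_Cre over No_Cre (adjusted p = 6.39e-10) and -2.12 ± 0.21 for Tek_Cre over No_Cre (adjusted p = 8.28e-09), on 61 counts in the Tek_Cre group. Myb, which acts on Elane and Mpo in progenitors, rose by 0.38 ± 0.04 in Prx1_Cre and fell by 0.24 in Tek_Cre LTHSC.

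Further factors of the list had other patterns or, as Gata1, Gfi1b and Id1, were called higher in Prx1_Cre and lower in Tek_Cre against No_Cre LTHSC. This goes by calls and not by overlap of libraries. Gata1 averaged 84.6 ± 8.03 CPM in Tek_Cre and 93.3 ± 1.26 CPM in No_Cre LTHSC. Id1 had log2 fold changes of 1.40 ± 0.09 in Prx1_Cre and -0.39 ± 0.10 in Tek_Cre over No_Cre. Cebpe, needed for specific granules, averaged 64.9 ± 1.55 CPM in Prx1_Cre, 36.4 ± 2.69 CPM in Tek_Cre and 35.4 ± 1.33 CPM in No_Cre LTHSC, a rise of 0.87 ± 0.05 in Prx1_Cre and a value of 0.04 ± 0.06 in Tek_Cre that was not called. Spi1, encoding PU.1, rose by 0.26 ± 0.05 in Prx1_Cre (313.7 ± 20.3 CPM against 263 ± 8.26 CPM in No_Cre LTHSC), and its Tek_Cre value of 0.07 ± 0.05 was not called. Gfi1, a repressor needed for neutrophil formation, rose by 0.15 ± 0.04 in Prx1_Cre LTHSC and had 0.06 ± 0.04 in Tek_Cre, not called. Irf8, a factor of the monocyte and dendritic cell lines, fell by 0.48 in Prx1_Cre and by 1.46 in Tek_Cre LTHSC. Sox4 fell by 1.79 in Prx1_Cre and by 0.40 in Tek_Cre LTHSC, Klf4 fell by 1.27 in Prx1_Cre and by 1.34 in Tek_Cre LTHSC, and Id2 fell by 0.18 in Prx1_Cre but rose by 0.62 ± 0.05 in Tek_Cre LTHSC. Gata1 and Gfi1b, factors of the erythroid and megakaryocyte lines, rose by 1.42 ± 0.05 and 0.93 ± 0.05 in Prx1_Cre LTHSC, and fell by 0.14 (Gata1) and 0.36 (Gfi1b) in Tek_Cre LTHSC.

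Genes that make, process, store and sort granule proteins were counted next. All 19 were tested, and 13 were called higher and 3 lower in Prx1_Cre against No_Cre LTHSC (median 0.20), 6 higher and 3 lower in Tek_Cre against No_Cre LTHSC (median -0.02), and 11 higher and 5 lower in Prx1_Cre against Tek_Cre LTHSC (median 0.25). The shares over all genes tested in these comparisons were 36.7% higher and 39.0% lower, 26.4% and 26.5%, and 37.8% and 39.8%. Scaling by library totals alone gave 2 higher and 14 lower for Tek_Cre against No_Cre. The chaperones Calr and Canx, calreticulin and calnexin, bind the myeloperoxidase precursor, and in Prx1_Cre LTHSC they rose by 0.37 ± 0.03 and 1.09 ± 0.04. In Tek_Cre LTHSC Calr fell by 0.34, and the Canx value of -0.02 ± 0.04 was not called. Hspa5, the chaperone BiP, rose by 1.16 ± 0.04 in Prx1_Cre and 0.48 ± 0.04 in Tek_Cre LTHSC. Ctsc, encoding cathepsin C, which trims the granule serine proteases to their active form, averaged 103.7 ± 6.27 CPM in Prx1_Cre, 135 ± 7.14 CPM in Tek_Cre and 108 ± 6.00 CPM in No_Cre LTHSC. It was not called in Prx1_Cre (log2 fold change -0.06 ± 0.05, adjusted p = 0.269) and rose by 0.31 ± 0.05 in Tek_Cre LTHSC. Srgn, encoding serglycin, the proteoglycan that packs elastase into the granule, fell by 0.38 in Prx1_Cre LTHSC and had -0.03 ± 0.05 in Tek_Cre, not called. The tetraspanin Cd63 of the azurophil granule membrane fell by 0.58 in Prx1_Cre and rose by 0.14 ± 0.03 in Tek_Cre LTHSC, and the protease gene Furin rose by 0.57 ± 0.05 in Tek_Cre LTHSC.

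The lysosomal enzymes that azurophil granules share, with the lysozyme genes, were all tested. Of 16, 10 were called higher and 5 lower in Prx1_Cre against No_Cre LTHSC (median 0.22), 7 higher and 3 lower in Tek_Cre against No_Cre LTHSC (median 0.04), and 6 higher and 8 lower in Prx1_Cre against Tek_Cre LTHSC (median -0.03). Over all genes tested, 36.7% were called higher and 39.0% lower in Prx1_Cre against No_Cre, 26.4% and 26.5% in Tek_Cre against No_Cre, and 37.8% and 39.8% in Prx1_Cre against Tek_Cre LTHSC. By library totals alone the list's Tek_Cre over No_Cre counts were 1 higher and 10 lower, and its Prx1_Cre over Tek_Cre counts were 12 higher and 3 lower (median 0.30). Lyz2, lysozyme, averaged 3963 ± 93.7 CPM in Prx1_Cre, 2655 ± 44.8 CPM in Tek_Cre and 2057 ± 47.6 CPM in No_Cre LTHSC, and rose by 0.95 ± 0.03 in Prx1_Cre and 0.37 ± 0.03 in Tek_Cre LTHSC. The sulfatase gene Arsb had the order of the azurophil genes, rising by 0.55 ± 0.05 in Prx1_Cre and falling by 0.81 ± 0.06 in Tek_Cre LTHSC. The sialidase gene Neu1 rose by 0.70 ± 0.05 in Prx1_Cre and fell by 0.14 in Tek_Cre LTHSC.

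The phagocyte NADPH oxidase makes the superoxide from which myeloperoxidase obtains hydrogen peroxide. Of its 8 listed subunits and partners, 6 were called higher and 2 lower in Prx1_Cre against No_Cre LTHSC (median 0.55), 6 higher and 1 lower in Tek_Cre against No_Cre LTHSC (median 0.21), and 5 higher and 1 lower in Prx1_Cre against Tek_Cre LTHSC (median 0.44). All genes tested had 36.7% higher and 39.0% lower calls in Prx1_Cre against No_Cre, 26.4% and 26.5% in Tek_Cre against No_Cre, and 37.8% and 39.8% in Prx1_Cre against Tek_Cre LTHSC. The Tek_Cre over No_Cre counts turned to 1 higher and 7 lower by library totals alone. Cybb, the catalytic subunit, rose by 1.23 ± 0.04 in Prx1_Cre and 0.50 ± 0.04 in Tek_Cre LTHSC. The cytosolic subunits Ncf1 and Ncf4 rose by 0.997 ± 0.03 and 1.02 ± 0.05 in Prx1_Cre LTHSC.

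Protease inhibitors other than Serpinb1a were listed as 21 genes, of which 14 were tested. In Prx1_Cre against No_Cre LTHSC 4 were called higher and 10 lower (median -0.59), beside 36.7% higher and 39.0% lower over all genes tested. In Tek_Cre against No_Cre LTHSC 5 were called higher and 5 lower (median -0.01, and 3 higher and 11 lower by library totals alone), and in Prx1_Cre against Tek_Cre LTHSC 2 higher and 9 lower (median -0.54), where the shares over all genes were 26.4% higher and 26.5% lower, and 37.8% and 39.8%. Slpi, the secretory inhibitor of elastase and cathepsin G, had 141 ± 10.4 CPM in Prx1_Cre, 11098 ± 529 CPM in Tek_Cre and 3166 ± 48.9 CPM in No_Cre LTHSC. Its log2 fold change was -4.48 ± 0.05 for Prx1_Cre over No_Cre (adjusted p = 9.99e-28) and 1.81 ± 0.05 for Tek_Cre over No_Cre (adjusted p = 1.61e-20), the reverse of the order of Elane and Ctsg. Serpina3g fell by 1.29 in Prx1_Cre and by 0.18 in Tek_Cre LTHSC, and Timp2, an inhibitor of metalloproteinases, fell by 1.06 in Prx1_Cre LTHSC. Cst7, encoding cystatin F, an inhibitor of cathepsin C, rose by 0.82 ± 0.04 in Prx1_Cre and fell by 0.63 in Tek_Cre LTHSC. Serpinb1b and Serpinb1c, the nearest relatives of Serpinb1a, had at most 12 counts over the 4 libraries of any group and were not tested.

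The genes whose pattern was most like that of the 8 were ranked by Pearson's r over 12 libraries with the mean of the 8 genes, each scaled to the same spread. Of 10333 genes compared 45 had r over 0.99 and 659 over 0.95, so many genes share the pattern. The 6 most alike were Mylk3 (0.998), Aurka (0.998), Hjurp (0.998), Sphk1 (0.998), Tm7sf3 (0.997) and Car1 (0.997). These values rest mainly on 3 group means and describe the libraries. Among the 8 themselves, the gene closest to Mpo and to Elane was Ctsg, and Serpinb1a was farthest from the rest, with an r of 0.493 to its nearest, Fcnb.

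Marker genes of other blood lineages moved with the groups, and their part in the levels of the 8 genes was not tested. Summed over 14 erythroid markers the level was 6389 to 6463 CPM in Prx1_Cre, 1299 to 1348 CPM in Tek_Cre and 1771 to 1819 CPM in No_Cre libraries. Over 12 B and plasma cell markers it was 1075 to 1126 CPM in Prx1_Cre, 93379 to 99521 CPM in Tek_Cre and 18172 to 18683 CPM in No_Cre libraries, with Pax5 at 0 counts in Prx1_Cre and Tek_Cre. This list includes the immunoglobulin gene Igkc, and of 11 genes tested 9 were called higher and 2 lower in Tek_Cre against No_Cre LTHSC. Over all genes tested 26.4% were called higher and 26.5% lower in that comparison. Over 14 markers of mast cells, basophils and eosinophils the summed level was 2184 to 2203 CPM in Prx1_Cre, 5142 to 5256 CPM in Tek_Cre and 4293 to 4363 CPM in No_Cre libraries. These markers did not move together, since in Tek_Cre against No_Cre LTHSC 7 of 14 were called higher and 6 lower (Prg2 had 15.97 CPM in Tek_Cre and 1109.8 CPM in No_Cre LTHSC), and in Prx1_Cre against Tek_Cre LTHSC 7 were higher and 7 lower. Over 14 monocyte, macrophage and dendritic cell markers it was 517 to 527 CPM in Prx1_Cre, 1448 to 1557 CPM in Tek_Cre and 983 to 1019 CPM in No_Cre libraries, though of 13 tested 3 were called higher and 7 lower in Tek_Cre against No_Cre LTHSC. The 9 megakaryocyte markers summed to 808 to 968 CPM in Prx1_Cre, 1092 to 1220 CPM (Gp6 at 0) in Tek_Cre and 1325 to 1389 CPM (Gp6 at 0) in No_Cre libraries. The 10 T and NK cell markers summed to 11.02 to 13.3 CPM in Prx1_Cre (Cd3e, Cd8a, Ncr1 and Gzma at 0), 27.2 to 32.8 CPM in Tek_Cre (Cd4, Cd8a, Ncr1 and Gzma at 0) and 29.0 to 30.9 CPM in No_Cre libraries (Cd3e and Cd3g at 0). The 13 stromal and endothelial markers summed to 135 to 142 CPM in Prx1_Cre (Pdgfra at 0), 201 to 210.4 CPM in Tek_Cre (Kitl and Cdh5 at 0) and 242 to 256 CPM in No_Cre libraries.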

How the data were processed

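RNA from sorted LTHSC of 12 libraries (4 each of Prx1_Cre, Tek_Cre and No_Cre) was amplified and sequenced, per the labels' protocols. The authors deposited 1 table of raw counts per gene, and the submitters' processing notes name Trim Galore 0.4.4, STAR 2.5.3a, HTSeq 0.9.1, DESeq2 1.18.1 and GRCm38. Whether counting used strand is not given in the sources used here. Gene symbols, gene coordinates and exon lengths came from the GENCODE annotation of GRCm38, which matched 48349 of 48795 identifiers, and promoter sequences from RefSeq. Low-input amplification can favour transcripts by length or base composition.

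The deposited counts were fitted with edgeR 4.0.16 in R 4.3.3 (limma 3.58.1), with filtering of low counts by group, TMM factors and the robust quasi-likelihood test, over all 12 libraries with group as the term. The Benjamini-Hochberg adjustment covered 14756 genes, and a gene was called at an adjusted p under 0.05. The ± of a fold change is its SE from this fit. Log2 CPM used a pseudocount of 0.5. The fit was tested on simulated data. Alternatives were other scalings, no filter, DESeq2 1.42.0, a replicate block, pairs of groups fitted alone and leaving out each library.

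The 8 genes and the other gene lists were chosen with earlier results of these data known. Some lists share genes, such as Cst7, Cybb and Cfd. Named list genes are the 3 called genes with the smallest p per list and comparison with at least 5 CPM on average, and genes with a textbook role in granule formation; a few that the rule names are not reported here. A few more were named after their values were seen (among them Olfm4, Prg2, Serpinb1b and Serpinb1c), as were the split of Ms4a3 and Serpinb1a from the other 6 genes, the ratio of early to later genes, the promoter motifs and the GC content check. Replicate pairs within groups differed beyond sampling noise (chi-square per degree of freedom 1.75 to 13.05 over 18 pairs), so none was merged.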

Additional observations from a re-analysis of the deposited data

Results flagged for a closer look

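In groups of 4 libraries, a library was marked by Dixon's 95% criterion on its gap to the nearest other library as outlying, a mark that chance gives in about 1 of 20 groups. Of 30 groups examined 4 were marked, and all 4 were the fourth Prx1_Cre library. That library had 12644 CPM of Mpo, against 10978 to 11074 CPM in the other 3 Prx1_Cre libraries. It had 3395 CPM of Elane, against 2978 to 3021 CPM in the others. The 8 azurophil genes summed to 19707 CPM in it, and as a share of the 24 later neutrophil genes they reached 46.4%. These 4 values are not independent, since Mpo and Elane make up most of the sums. The same library had the strongest relation to transcript GC content, 0.716 over 10332 genes. The part of base composition in these values was not tested.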

How the results depend on the processing

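Directions of the 8 genes held under the other scalings, no filter, DESeq2, fits of 2 groups alone, the block and each left-out library, except that Serpinb1a in Tek_Cre over No_Cre was -0.087 by library totals alone. Of 384 recomputed changes of the 8 genes 21 moved by more than the spread between libraries, 15 by library totals and 6 by upper-quartile scaling. Their median moved to 0.69 in Prx1_Cre over No_Cre by upper-quartile scaling (median of all genes -0.11), and by library totals to -1.35 in Tek_Cre over No_Cre and 2.13 in Prx1_Cre over Tek_Cre. Library totals shifted the median of all genes to -0.35 and 0.32 in these comparisons, with 1516 higher and 9674 lower calls against 3896 and 3911 by TMM, and 8233 and 3841 against 5571 and 5873. Rises under that shift in Tek_Cre over No_Cre depend on the scaling. Leaving out a library gave medians of 0.74 to 0.80, -1.02 to -1.0004 and 1.79 to 1.81, and 10941 to 11485, 7356 to 7715 and 11304 to 11787 calls against 11160, 7807 and 11444. Of 810 recomputed list counts 32 moved by over 1.5 times, 20 of them by library totals. Deviations of same-numbered libraries correlated over 0.1 in 4 of 12 pairs (-0.05 to 0.32), all 3 pairs numbered 4 among them, against 1 of 36 other pairs, and 12 of 24 best matches were the own number (6 at random). This hints at shared structure, but the labels tie the numbers to nothing and not every pair passed 0.1, so the numbers were not taken as pairs. The replicate block gave 11418, 8368 and 11691 calls. Depth limits the genes of few counts, such as Cebpa in Tek_Cre LTHSC.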

Other observations

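Relatives of the 8 genes in the same protein families were divided. Of 24 listed 17 were tested, and 5 were called higher and 11 lower in Prx1_Cre against No_Cre LTHSC (median log2 fold change -0.43), 4 higher and 9 lower in Tek_Cre against No_Cre LTHSC (median -0.41), and 8 higher and 7 lower in Prx1_Cre against Tek_Cre LTHSC (median 0.44). Over all genes tested 36.7% were called higher and 39.0% lower in Prx1_Cre against No_Cre, 26.4% and 26.5% in Tek_Cre against No_Cre, and 37.8% and 39.8% in Prx1_Cre against Tek_Cre LTHSC. Epx, the eosinophil peroxidase and closest relative of Mpo, averaged 78.7 ± 7.17 CPM in Prx1_Cre, 2.96 ± 0.710 CPM in Tek_Cre and 414 ± 9.24 CPM in No_Cre LTHSC (SD, n = 4), so it was highest in No_Cre LTHSC while Mpo was highest in Prx1_Cre LTHSC. Its log2 fold change was -2.39 ± 0.06 for Prx1_Cre over No_Cre and -7.17 ± 0.09 for Tek_Cre over No_Cre, both called. The mast cell chymase gene Cma1 fell by 0.67 in Prx1_Cre and rose by 1.08 ± 0.03 in Tek_Cre LTHSC, the basophil protease gene Mcpt8 fell by 0.38 in Prx1_Cre and by 2.88 in Tek_Cre LTHSC, and Gzmb, granzyme B, fell by 1.13 in Prx1_Cre LTHSC. Cfd, encoding complement factor D beside Elane on chromosome 10, had 84 counts in Prx1_Cre, 0 in Tek_Cre and 1 in No_Cre libraries.

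Genes around Prss57, Prtn3 and Elane on chromosome 10 were called in both directions. Of 23 listed 19 were tested, and 9 were called higher and 6 lower in Prx1_Cre against No_Cre LTHSC (median 0.07, or -0.03 with upper-quartile scaling), 3 higher and 5 lower in Tek_Cre against No_Cre LTHSC (median -0.07, and 1 higher and 14 lower by library totals alone), and 10 higher and 6 lower in Prx1_Cre against Tek_Cre LTHSC (median 0.15), against the shares over all genes given above. Wdr18 rose by 0.65 ± 0.05 in Prx1_Cre LTHSC with a Tek_Cre value of -0.08 ± 0.05 that was not called, Arid3a rose by 0.74 ± 0.06 in Prx1_Cre and 0.50 ± 0.06 in Tek_Cre LTHSC, Bsg, encoding basigin, rose by 0.43 ± 0.03 in Prx1_Cre LTHSC, and Plppr3, next to the protease cluster, fell by 0.40 in Prx1_Cre and by 0.55 in Tek_Cre LTHSC. R3hdm4 fell by 0.24 in Prx1_Cre and rose by 0.18 ± 0.04 in Tek_Cre LTHSC.

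Summed over 20 immediate early genes the level was 11362 to 12426 CPM in Prx1_Cre, 16613 to 17752 CPM in Tek_Cre and 21780 to 23816 CPM in No_Cre libraries. Over 13 mitochondrially encoded genes, 5 or 6 of which were at 0 counts in a group, it was 2467 to 3914 CPM in Prx1_Cre, 1068 to 1253 CPM in Tek_Cre and 912 to 1107 CPM in No_Cre libraries. Their part in the levels of the azurophil granule genes was not tested.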
